A study of Homo sapiens with 6 samples.

Results

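The transcripts of ABC transporter genes were measured in cultures of the human line H69 kept for 24 h in 1 µM trichostatin A (TSA) or in the solvent DMSO alone (vehicle). The genes were taken by name, as every row of the deposited expression table whose symbol is ABC, a subfamily letter from A to G and a number, which gave 39 of 31814 genes, of which 37 are described. TSA inhibits histone deacetylases, the enzymes that take acetyl groups off histones and other proteins. Each group held 3 libraries of polyadenylated RNA. Nothing in the labels tells whether separate cultures were used, and the p-values therefore describe library-to-library spread that may be technical. For the treated libraries a tag spells the agent HSA, where the rest of the labels and the design have TSA. The labels give neither the tissue of the line nor any batch.

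ABC transporters bind and hydrolyse ATP at paired nucleotide-binding domains and use it to move lipids, peptides, drugs, metal-linked compounds or conjugated metabolites across membranes. The ABCA, ABCC and some ABCB proteins carry all domains in a single chain, whereas the ABCD, ABCG and other ABCB proteins carry a single set and work as dimers. The ABCE and ABCF proteins have the nucleotide-binding domains without membrane domains, and act in translation. In cancer cells the family is best known for ABCB1 (P-glycoprotein), ABCC1 and ABCG2, which pump out chemotherapy drugs.

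Levels are given in TPM, a measure of transcript abundance scaled for gene length that sums to the same total in every library. The neuroendocrine transcription factor gene INSM1 averaged 24.7 ± 4.93 TPM in TSA and 614 ± 77.4 TPM in vehicle (mean ± SD, n = 3 each). All 7 neuroendocrine markers described were past the filter in these libraries, with 2 higher in TSA (NCAM1 and CHGA), 4 lower, INSM1 among them, and 1 that did not pass the test (SYP). Of 6 bile duct markers 5 were past the filter, with 3 higher in TSA (KRT8, KRT18 and SOX9) and 2 lower (KRT7 and KRT19). The call of KRT18 ended without TSA replicate 2 (adjusted p 0.12), TSA replicate 3 (0.12), vehicle replicate 1 (0.12) or vehicle replicate 3 (0.13). Over 8 leukocyte, endothelial and fibroblast markers in the table the summed level was 8.23 to 12.1 TPM in TSA and 1.44 to 2.66 TPM in vehicle. Most of this sum was COL1A1, at 5.44 ± 0.958 TPM in TSA and 0.510 ± 0.358 TPM in vehicle, and CD68, at 3.88 ± 1.11 TPM in TSA and 1.14 ± 0.513 TPM in vehicle, which passed the filter only with their TSA libraries. The leukocyte marker PTPRC went the other way, at 0.0432 ± 0.0187 TPM in TSA and 0.480 ± 0.0306 TPM in vehicle, and the endothelial marker CDH5 was at 0.0612 ± 0.0569 TPM in TSA and 0.0262 ± 0.0267 TPM in vehicle. The leukocyte marker CD3E was at 0.179 ± 0.106 TPM and the fibroblast marker COL1A2 at 0.255 ± 0.0521 TPM in TSA, both listed at 0 in vehicle. COL3A1 and ACTA2 averaged at most 0.0599 TPM in either group. The part of these markers in the results was not tested. Whole reads recovered from the TPM values, which are lower bounds of depth, came to between 22533307 and 26148651 per library. The replicate 1 libraries had the highest mitochondrial share of their groups: mitochondrially encoded genes took 16.9% of TPM in TSA library 1, against 7.65% and 10.4% in TSA libraries 2 and 3, and 12.3% in vehicle library 1, against 4.97% and 10.1% in vehicle libraries 2 and 3. The part of this share in the results was not tested, and calls of ABC genes that change without both of these libraries are given with and without them. In bulk RNA, fewer cells with a transcript and less of it per cell cannot be told apart.

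TSA-treated cells carried more ABCA7, ABCB9 and ABCF3 RNA, each with a log2 fold change of TPM + 1 above 1, and less ABCE1 and ABCB10 RNA, each with one below −1. Smaller rises were seen in ABCB8, ABCB6, ABCD3 and ABCG1, and smaller falls in ABCA3 and ABCF2. None of the 5 tested ABCC genes, which include several drug exporters, passed the test. Of the 37 genes, 20 reached 1 TPM in at least 3 libraries and were tested with limma across all genes. Of these 20, 7 were higher and 4 lower in TSA at a Benjamini-Hochberg adjusted p under 0.05, and 9 did not pass. Over all 17596 tested genes 62.2% passed, 28.0% higher and 34.2% lower, so the 55% of ABC genes that passed is near the background. The median log2 fold change was 0.032 over the 20 genes and −0.095 over all tested genes. Without single libraries the median of the 20 ranged from −0.14 (without TSA replicate 1, where that of all genes was −0.25) to 0.30 (without TSA replicate 2, where that of all genes was −0.13), and it was −0.11 without vehicle replicate 2, where that of all genes was −0.080. The changes of at least 2-fold, 3 higher and 2 lower, stand beside 15.5% and 19.7% of all tested genes. With transcript length and GC trends removed from each library, the 2 lower ones were −0.92 (ABCE1) and −0.97 (ABCB10). The 2 groups did not overlap in 12 of the 20 genes, 8 with TSA above and 4 with TSA below, while 67.0% of all tested genes did not overlap. Without both replicate 1 libraries 8 of the 20 were higher and 5 lower (all genes 28.4% and 36.4%), and with transcript length and GC trends removed from each library 9 were higher and 3 lower (all genes 33.5% and 32.9%). A median-of-ratios scaling moved the median of all genes to 0.016 and gave 8 higher and 3 lower (all genes 30.7% and 30.2%).

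**Figure D1:**
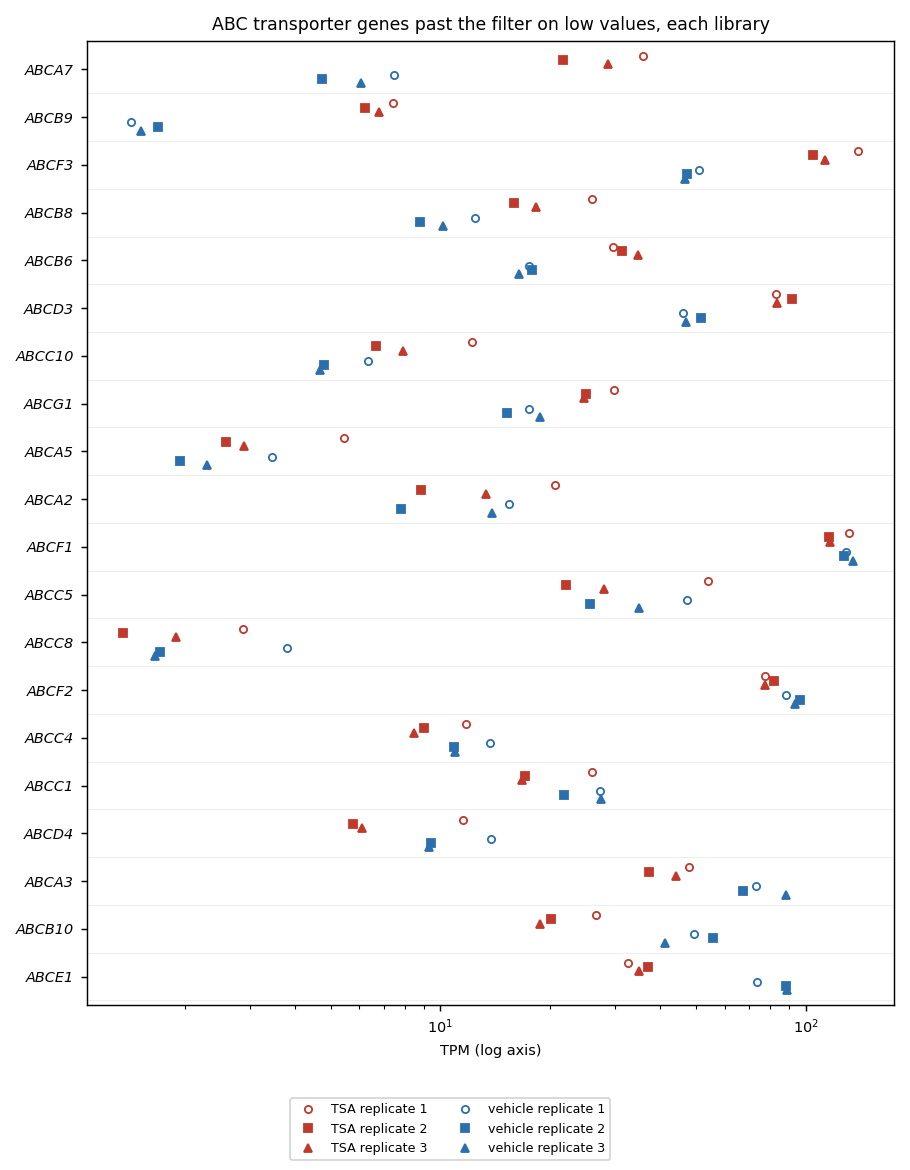
TPM of each of the 20 tested ABC genes on a log axis, with the 3 TSA libraries above the 3 vehicle libraries of each gene and a marker shape for each replicate number; genes run from the greatest rise at the top to the greatest fall at the bottom. The groups are apart at both ends of the plot, also in ABCC10, which did not pass, and mix in its middle except in ABCF2. Replicate 1 (open circles) is the highest TSA library in 16 of the 20 genes, among them all 9 that did not pass.

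**Figure D2:**
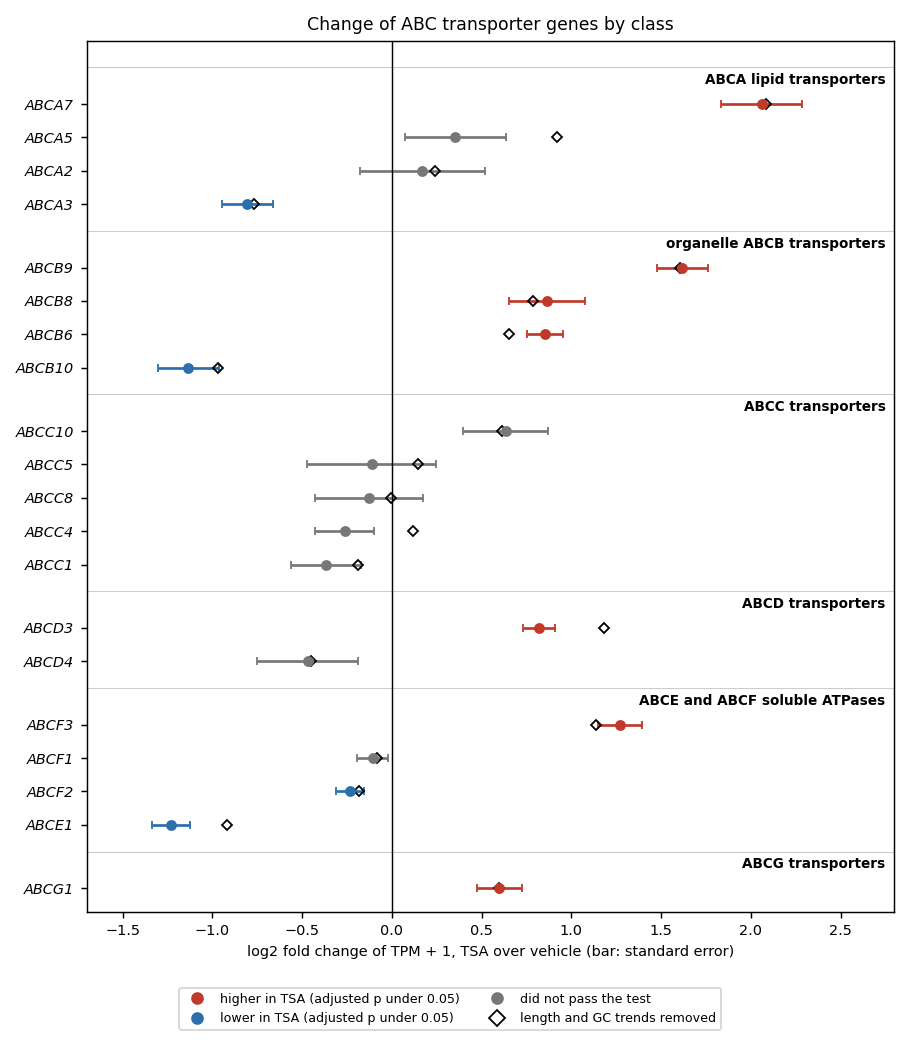
Log2 fold change of TPM + 1, TSA over vehicle, of the 20 tested ABC genes by class, with its standard error from limma; red marks genes higher and blue genes lower at an adjusted p under 0.05, grey genes that did not pass, and open diamonds the value once transcript length and GC trends were removed per library. The organelle ABCB genes split into 3 higher and 1 lower, and all 5 ABCC genes are grey.

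RefSeq sequences before the annotated transcript start, on build GRCh38.p14, were at hand for 29 of the 37 genes, in 47 windows of 250 bases since some genes have several starts. Shown are the 3 strongest risers and the 2 strongest fallers among ABC genes whose first listed window holds at least 150 bases in a row outside GENCODE 29 exons, so that sequence before risers and fallers can be set side by side. They are written 5′ to 3′ on the strand of the gene, and capitals mark the GC box, GGGCGG or its reverse complement CCGCCC, which is bound by Sp1-family factors.
ABCA7: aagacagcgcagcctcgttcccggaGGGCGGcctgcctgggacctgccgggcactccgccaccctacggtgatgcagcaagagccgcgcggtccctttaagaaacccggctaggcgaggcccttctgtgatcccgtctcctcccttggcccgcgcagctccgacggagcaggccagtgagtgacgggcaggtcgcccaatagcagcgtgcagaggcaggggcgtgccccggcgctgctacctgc
ABCB9: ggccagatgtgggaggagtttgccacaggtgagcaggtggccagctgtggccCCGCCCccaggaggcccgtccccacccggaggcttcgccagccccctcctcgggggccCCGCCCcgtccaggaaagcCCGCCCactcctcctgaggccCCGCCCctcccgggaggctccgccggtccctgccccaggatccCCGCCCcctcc
ABCB8: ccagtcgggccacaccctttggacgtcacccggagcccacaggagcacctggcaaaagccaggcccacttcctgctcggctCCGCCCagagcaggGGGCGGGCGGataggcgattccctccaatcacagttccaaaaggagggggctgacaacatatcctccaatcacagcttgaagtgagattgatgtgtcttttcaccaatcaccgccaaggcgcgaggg
ABCB10: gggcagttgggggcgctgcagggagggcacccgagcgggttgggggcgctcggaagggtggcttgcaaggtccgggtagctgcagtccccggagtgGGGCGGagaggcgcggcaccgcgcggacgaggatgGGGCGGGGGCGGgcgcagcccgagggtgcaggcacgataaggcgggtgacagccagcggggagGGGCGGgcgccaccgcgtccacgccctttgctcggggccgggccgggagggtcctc
ABCA3: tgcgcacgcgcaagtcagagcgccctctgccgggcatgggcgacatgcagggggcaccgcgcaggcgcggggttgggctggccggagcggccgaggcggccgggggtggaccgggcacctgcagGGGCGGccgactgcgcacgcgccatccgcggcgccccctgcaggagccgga
The stretches lie at chr19:1039857-1040100 (plus strand) for ABCA7, chr12:122966510-122966713 (minus strand) for ABCB9, chr7:151028200-151028421 (plus strand) for ABCB8, chr1:229558708-229558957 (minus strand) for ABCB10 and chr16:2340747-2340921 (minus strand) for ABCA3. ABCB9 holds 5 GC boxes, ABCB8 3 and ABCA7 1, and among the genes that fell ABCB10 holds 4 and ABCA3 1. ABCB10 thus has more of these letters than ABCA7 and ABCB8, which rose. In the whole 250 bases, at any start of the gene, the GC box was found in 6 of 6 ABC genes that were higher, 3 of 4 that were lower, 6 of 7 that did not pass and 5 of 12 that were not tested, against 46.2% of all 27305 genes with a window. The CCAAT box (CCAAT or ATTGG) was found in 4 of 6, 1 of 4, 0 of 7 and 5 of 12 of the same sets and in 37.0% of all genes, and the E-box CACGTG in 2 of 6, 0 of 4, 2 of 7 and 3 of 12 and in 7.73%. A count at any start favours genes with more windows. The background also holds genes that were not tested, and its share over tested genes alone was not taken. The sets past the filter and the background are therefore unlike. By window, the GC box was in 51.1% of the 47 ABC windows and in 42.6% of all 35116 windows. The CCAAT box was in 21.3% and 32.0% of the same windows, and the E-box in 17.0% and 6.34%. A match in these letters is a description of the sequence and does not show binding.

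ABCD3 rose, and the other tested ABCD gene described, ABCD4, did not pass the test. ABCD3 (PMP70), an abundant peroxisomal membrane protein that imports branched-chain fatty acids and bile acid precursors, was at 83.1, 92.0 and 83.4 TPM in TSA and at 46.2, 51.6 and 47.2 TPM in vehicle (log2 fold change 0.82, standard error 0.089, adjusted p 0.00027). Every TSA library of ABCD3 lay above every vehicle library. ABCD2, which also imports fatty acids into peroxisomes, was below the filter, at 0.706, 0.494 and 0.475 TPM in TSA and listed at 0 in each vehicle library. ABCD4, which acts in lysosomal cobalamin release, was at 11.5, 5.77 and 6.09 TPM in TSA and at 13.8, 9.42 and 9.33 TPM in vehicle, where the groups overlapped (log2 fold change −0.47, standard error 0.28, adjusted p 0.19). ABCD4 passed as lower without TSA replicate 1 (−0.75, adjusted p 0.014) and without both replicate 1 libraries (−0.58, adjusted p 0.019).

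Genes of the peroxisome itself passed in both directions. Of 20 tested genes of a list on peroxisome biogenesis and beta-oxidation 10 were higher and 3 lower, beside 28.0% and 34.2% of all tested genes, with a median log2 fold change of 0.36 against −0.095 over all tested genes. PEX16, which takes part in placing membrane proteins into peroxisomes, averaged 65.6 ± 6.60 TPM in TSA and 16.6 ± 2.32 TPM in vehicle (log2 fold change 1.93). ACAA1, the peroxisomal thiolase, rose by 1.16 and PEX5, the import receptor, by 1.03 on the log2 scale. SCP2, a sterol carrier protein and thiolase, fell by 1.31.

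The 4 organelle ABCB genes described all passed the test, 3 higher and 1 lower, as did 62.2% of all tested genes. ABCB6, a porphyrin transporter reported in the outer mitochondrial membrane and in other membranes, was at 29.7, 31.5 and 34.8 TPM in TSA and at 17.5, 17.8 and 16.4 TPM in vehicle (log2 fold change 0.85, standard error 0.10, adjusted p 0.00042). ABCB8, of the inner mitochondrial membrane, was at 26.0, 15.9 and 18.3 TPM in TSA and at 12.4, 8.78 and 10.1 TPM in vehicle (log2 fold change 0.86, standard error 0.21, adjusted p 0.011). In both genes every TSA library lay above every vehicle library. ABCB10, an inner-membrane protein needed for haem synthesis in red cell precursors, was at 26.7, 20.1 and 18.7 TPM in TSA and at 49.6, 55.8 and 41.3 TPM in vehicle (log2 fold change −1.13, standard error 0.17, adjusted p 0.0012). Here every TSA library lay below every vehicle library. GENCODE 29 names 3 processed pseudogenes of ABCB10, so its level is uncertain. ABCB6 and ABCB8 together made up 70.6 ± 3.18% of the summed TPM of ABCB6, ABCB8 and ABCB10 in TSA and 36.4 ± 3.59% in vehicle. These 3 genes had already passed in these directions without overlap, so the shift in share adds nothing to their calls. ABCB9, of the same class, is not in this sum.

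ABCB9, a lysosomal peptide transporter related to the TAP peptide transporters, was at 7.42, 6.21 and 6.80 TPM in TSA and at 1.42, 1.69 and 1.52 TPM in vehicle, without overlap (log2 fold change 1.62, standard error 0.14, adjusted p 0.00011). No source used here states whether the authors' counting used strand, and 24.5% of the annotated exon bases of ABCB9 overlap genes on the opposite strand, among them OGFOD2 and ARL6IP4. OGFOD2 averaged 9.88 ± 2.79 TPM in TSA and 7.997 ± 1.60 TPM in vehicle and did not pass the test (adjusted p 0.37), and ARL6IP4 fell by 0.99 on the log2 scale. ABCB6 shares 54.7% of its exon bases with a read-through gene of the same strand in GENCODE 29, which adds uncertainty to its level. TAP1 and TAP2, ABC genes under other symbols that carry peptides to the endoplasmic reticulum for antigen presentation, were also higher. TAP1 averaged 2.08 ± 0.335 TPM in TSA and was listed at 0 in vehicle, and both gene entries of TAP2 were higher, by 1.93 and 1.41 on the log2 scale. These 3 entries had passed the filter through their TSA libraries alone, so their rise was a condition of being tested.

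Of 10 genes that make haem or iron-sulfur clusters, or carry iron into mitochondria, all were tested, and 6 were higher and 1 lower, beside 28.0% and 34.2% of all tested genes, with a median log2 fold change of 0.53. The higher count was 4 to 6 without single libraries and 8 without both replicate 1 libraries. The lower gene was FECH (log2 fold change −0.44), the last enzyme of haem synthesis, named after its values were seen. It passed neither under median-of-ratios or quantile scaling nor with length and GC trends removed, where 0 were lower, and it kept its call when any single library was left out. GLRX5, a glutaredoxin of iron-sulfur assembly, averaged 172 ± 34.0 TPM in TSA and 92.6 ± 12.3 TPM in vehicle (log2 fold change 0.87). The scaffold gene ISCU rose by 0.69, the haem synthesis gene ALAS1 by 0.60 and the cysteine desulfurase gene NFS1 by 0.58 on the log2 scale. Of the 10 genes 6 were higher, as were ABCB6 and ABCB8. ABCB10 was lower, and the call of FECH as lower depended on the scaling and on the length and GC trends.

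The soluble ABC proteins held 49.0 ± 2.30% of the summed TPM of the 37 ABC genes in TSA and 51.5 ± 2.52% in vehicle. ABCE1, which splits ribosomes after translation ends, was at 32.7, 37.1 and 34.9 TPM in TSA and at 73.5, 88.3 and 88.7 TPM in vehicle. All TSA libraries were below all vehicle libraries (log2 fold change −1.23, standard error 0.11, adjusted p 0.00011). In the main fit this was the greatest fall among the 20 tested genes. ABCB10 fell more with length and GC trends removed (−0.97 against −0.92), without TSA replicate 1 (−1.28 against −1.19) and without vehicle replicate 3 (−1.25 against −1.19). Of the exon bases of ABCE1 11.9% overlap genes of the opposite strand, among them OTUD4, which fell by 1.20, and ANAPC10, which did not pass (adjusted p 0.28). ABCF3, related to the yeast protein GCN20 that acts in amino acid sensing, was at 139, 105 and 113 TPM in TSA and at 51.0, 47.3 and 46.8 TPM in vehicle (log2 fold change 1.27, standard error 0.12, adjusted p 0.00016). ABCE1 thus made up 9.90 ± 1.18% of the summed TPM of these 4 genes in TSA and 23.5 ± 1.75% in vehicle. ABCF1, which binds the initiation factor eIF2, was at 131, 116 and 117 TPM in TSA and at 129, 127 and 135 TPM in vehicle, and the groups overlapped (adjusted p 0.33). ABCF2 was at 77.3, 81.8 and 77.3 TPM in TSA and at 88.6, 96.4 and 93.3 TPM in vehicle, a small fall (log2 fold change −0.23, standard error 0.079, adjusted p 0.039). The groups did not overlap in ABCF2, yet its call ended in 12 of 20 alternatives, among them the loss of any single library, with an adjusted p of 0.032 to 0.46 over all of them and 0.065 without both replicate 1 libraries, and 45.8% of its exon bases are shared with a read-through gene of GENCODE 29, which also names 2 pseudogenes of ABCF2.

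Genes that work with ABCE1 or the ABCF proteins on ribosomes passed in both directions. Their median log2 fold change was 0.031, with 5 of 10 higher and 2 lower, beside 28.0% and 34.2% of all tested genes. PELO, which recognises stalled ribosomes for ABCE1 to split, averaged 40.9 ± 3.58 TPM in TSA and 22.4 ± 3.91 TPM in vehicle (log2 fold change 0.85). EIF2S1, a subunit of eIF2, rose by 0.44 on the log2 scale. GCN1L1, the human counterpart of the partner of yeast GCN20, averaged 18.7 ± 8.01 TPM in TSA and 47.9 ± 14.01 TPM in vehicle (log2 fold change −1.34). The kinase gene EIF2AK4 (GCN2) fell by 0.39, a call that ended in 12 of its 20 alternatives, among them those without TSA replicate 2 (adjusted p 0.15), TSA replicate 3 (0.14), vehicle replicate 1 (0.12), vehicle replicate 3 (0.15) or both replicate 1 libraries (0.060), which left 1 lower. The higher count was 2 without TSA replicate 2, vehicle replicate 1, vehicle replicate 3 or both replicate 1 libraries, and 3 without TSA replicate 1 or vehicle replicate 2.

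Among the lipid transporters, ABCA7 and ABCA3 passed the test in opposite directions. ABCA7, which moves phospholipids and is known as a risk gene of Alzheimer's disease, was at 36.0, 21.7 and 28.7 TPM in TSA and at 7.48, 4.74 and 6.06 TPM in vehicle, without overlap (log2 fold change 2.06, standard error 0.23, adjusted p 0.00029). ABCA3, which loads surfactant lipids into lamellar bodies of lung alveolar cells, was at 48.1, 37.3 and 44.1 TPM in TSA and at 73.3, 67.2 and 88.1 TPM in vehicle (log2 fold change −0.81, standard error 0.14, adjusted p 0.0024). ABCA3 remained the most abundant ABCA gene, at 48.4 ± 4.75% of the summed ABCA TPM in TSA and 77.1 ± 4.72% in vehicle, and ABCA7 took 31.7 ± 0.921% in TSA and 6.14 ± 1.04% in vehicle. ABCA2, a lipid transporter of endosomes and lysosomes, was at 20.6, 8.84 and 13.3 TPM in TSA and at 15.4, 7.80 and 13.8 TPM in vehicle, where the groups overlapped (adjusted p 0.70). ABCA5 was at 5.43, 2.59 and 2.90 TPM in TSA and at 3.45, 1.94 and 2.30 TPM in vehicle and did not pass either (log2 fold change 0.35, standard error 0.28, adjusted p 0.31). With length and GC trends removed its log2 fold change was 0.92 (adjusted p 0.0012). ABCG1, which moves cholesterol to lipoproteins, was at 29.8, 25.0 and 24.7 TPM in TSA and at 17.4, 15.3 and 18.8 TPM in vehicle (log2 fold change 0.60, standard error 0.13, adjusted p 0.0057). ABCA1, the other well-known cholesterol exporter, stayed below the filter at 0.898, 0.331 and 0.274 TPM in TSA and 1.61, 0.701 and 0.846 TPM in vehicle, and the groups overlapped.

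Other genes of sterol traffic and of the liver X receptor pathway, which switches on ABCA1 and ABCG1 when sterols build up, moved in both directions. Of 15 tested entries, ABCG1 among them, 7 were higher and 6 lower, beside 28.0% and 34.2% of all tested genes, with a median log2 fold change of 0.33. NPC2, which binds cholesterol in lysosomes, was at 82.8, 116 and 102 TPM in TSA and 10.6, 12.9 and 9.15 TPM in vehicle (log2 fold change 3.09). LIPA, the lysosomal acid lipase, rose by 2.64, SREBF1, a regulator of lipid synthesis, by 2.06 and MYLIP, which marks the LDL receptor for degradation, by 1.93 on the log2 scale. NR1H3, which encodes liver X receptor alpha, averaged 2.996 ± 0.125 TPM in TSA and 5.25 ± 0.625 TPM in vehicle (adjusted p 0.0075). NR1H2, the beta form, averaged 8.28 ± 1.65 TPM in TSA and 9.15 ± 0.757 TPM in vehicle and did not pass the test (adjusted p 0.49). NR1H3 and NR1H2 were named because they encode the receptors, after their values were seen.

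The ABCC genes did not pass the test, and in 4 of the 5 tested ones the groups overlapped. ABCC1 (MRP1), which exports glutathione conjugates and drugs, was at 26.0, 17.1 and 16.7 TPM in TSA and at 27.4, 21.8 and 27.5 TPM in vehicle (log2 fold change −0.37, standard error 0.19, adjusted p 0.15). Without both replicate 1 libraries ABCC1 passed, with a log2 fold change of −0.51 (adjusted p 0.030), and without TSA replicate 1 alone it was −0.56 (adjusted p 0.010). ABCC5, an exporter of cyclic nucleotides and drugs, was the most abundant at 53.9, 22.0 and 28.1 TPM in TSA and 47.4, 25.7 and 35.0 TPM in vehicle. Its scatter within each group was wide (log2 fold change −0.11, standard error 0.36, adjusted p 0.80). ABCC4 (MRP4) was at 11.8, 8.99 and 8.49 TPM in TSA and at 13.7, 10.9 and 11.0 TPM in vehicle (adjusted p 0.21). ABCC10 (MRP7) was at 12.2, 6.67 and 7.91 TPM in TSA and at 6.33, 4.79 and 4.68 TPM in vehicle. Here every TSA library was above every vehicle library, but the test missed the threshold (log2 fold change 0.63, standard error 0.24, adjusted p 0.052). It passed as higher in 10 of 20 alternatives, with an adjusted p of 0.0042 to 0.14 over all of them, with 0.034 without TSA replicate 2 and 0.040 without both replicate 1 libraries (log2 fold change 0.53).

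ABCC8 (SUR1), the sulfonylurea receptor that forms the ATP-sensitive potassium channel with the pore protein of KCNJ11, was at 2.88, 1.35 and 1.88 TPM in TSA and at 3.79, 1.70 and 1.65 TPM in vehicle (adjusted p 0.74). KCNJ11 averaged 7.10 ± 0.874 TPM in TSA and 9.45 ± 1.10 TPM in vehicle and did not pass (log2 fold change −0.37, adjusted p 0.069), though it passed as lower with the trends in length and GC taken out (log2 fold change −0.61, adjusted p 0.0034). KCNJ8, the other pore gene, was at 0.0190 ± 0.0328 TPM in TSA and listed at 0 in vehicle.

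The remaining ABC genes were near the limit of detection. Of the 17 genes below the filter, 11 reached 0.5 TPM in no library, and 5 were listed at 0 in all vehicle libraries. The groups did not overlap in 8 of the 17, 6 with TSA above and 2 with TSA below, while among all 14218 genes of the table below the filter 23.1% did not overlap, 14.3% with TSA above and 8.81% with TSA below. ABCB1, the P-glycoprotein gene, was at 0.917, 0.773 and 0.712 TPM in TSA and listed at 0 in each vehicle library. Its TSA values rest on 37, 32 and 28 recovered reads. ABCG2, the breast cancer resistance protein gene, was at 0.909, 0.581 and 0.437 TPM in TSA and at 0.0309, 0 and 0 TPM in vehicle, on 32, 21 and 15 recovered reads in TSA and 1, 0 and 0 in vehicle. ABCG4, a sterol transporter of the brain, was at 1.98, 0.770 and 1.04 TPM in TSA and at 0.311, 0.305 and 0.113 TPM in vehicle. All 3 were higher in every TSA library than in any vehicle library, at levels near 1 TPM. ABCA12, which carries ceramide lipids for the skin barrier, was at 0.0146, 0 and 0.0450 TPM in TSA and at 0.684, 0.524 and 0.690 TPM in vehicle. ABCA13, the longest protein of the family, was at 0.0222, 0.0361 and 0.0152 TPM in TSA and at 0.177, 0.206 and 0.304 TPM in vehicle. Both thus went the opposite way to ABCB1, ABCD2, ABCG2 and ABCG4.

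A fit with no filter on low values tested all 37 genes and called 11 higher and 6 lower, where 18.3% of all genes were higher and 19.4% lower. Among the genes below the filter it called ABCB1 (log2 fold change 0.85 on the log2(TPM + 1) scale, adjusted p 0.00045), ABCD2 (0.64, adjusted p 0.0014), ABCG2 (0.69, adjusted p 0.0049) and ABCG4 (0.83, adjusted p 0.026) higher, and ABCA12 (−0.68, adjusted p 0.00092) and ABCA13 (−0.26, adjusted p 0.015) lower. Fold changes on this scale understate changes at such low levels. ABCA4, a retinoid transporter of photoreceptors, and ABCC6, whose counts can be split with its pseudogenes ABCC6P1 and ABCC6P2, also had no overlap but no library above 0.164 TPM. ABCA10, ABCB4, ABCB5, ABCC2, ABCC3, ABCC11, ABCC12 and the pseudogene ABCC13 ranged from 0 to 0.331 TPM in TSA and from 0 to 0.476 TPM in vehicle, and their groups overlapped.

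**Figure D3:**
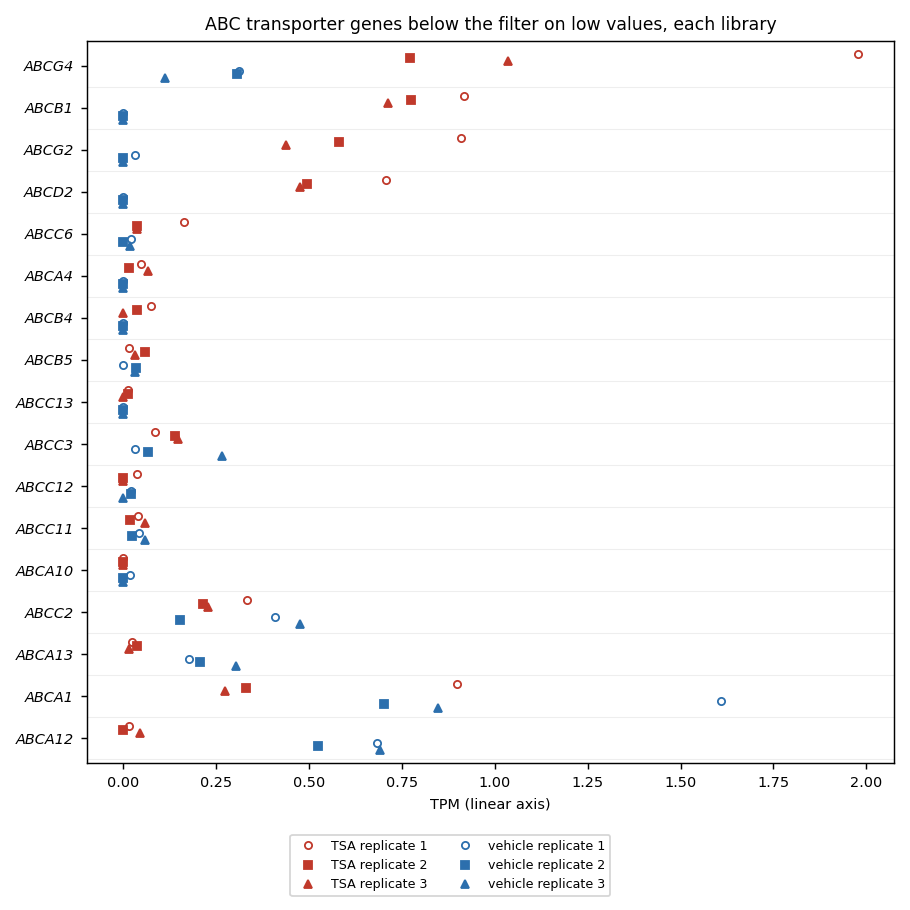
TPM of each of the 17 ABC genes below the filter on a linear axis, with the 3 TSA libraries above the 3 vehicle libraries of each gene. ABCG4, ABCB1, ABCG2 and ABCD2 lie apart with TSA to the right, ABCA12 and ABCA13 with TSA to the left, and most others crowd near 0.

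Genes that are often studied beside the efflux pumps passed in both directions. Of 11 tested xenobiotic and glutathione genes 7 were lower and 3 higher, beside 34.2% and 28.0% of all tested genes, with a median log2 fold change of −0.66. AHR, a receptor for aromatic compounds, averaged 32.9 ± 7.49 TPM in TSA and 1.66 ± 0.179 TPM in vehicle (log2 fold change 3.65), and HMOX1, haem oxygenase 1, rose by 1.89. HMOX1 passed the filter only with its TSA libraries, and of the 10 genes at 1 TPM or more in every vehicle library 2 were higher and 7 lower. NQO1, a target of the oxidative stress factor NRF2, averaged 5.77 ± 1.08 TPM in TSA and 31.9 ± 13.3 TPM in vehicle (log2 fold change −2.21). KEAP1, the inhibitor of NRF2, fell by 1.69. NFE2L2, which encodes NRF2, fell by 0.84 (adjusted p 0.00032) and was named for that reason, after its values were seen. NRF2 activity was not tested.

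The summed level of the described genes overlapped between the groups. The shares of ABCE1, ABCA3 and ABCA7 given above, each within its own class, did not, but these genes had already passed the test without overlap. Summed over the 37 genes the level was 818, 667 and 691 TPM in TSA and 703, 668 and 701 TPM in vehicle. The 3 ABCD genes described summed to 94.5 ± 4.23 TPM in TSA and 59.2 ± 2.40 TPM in vehicle, without overlap. Most of this sum was ABCD3, at 86.2 ± 5.08 TPM in TSA and 48.4 ± 2.89 TPM in vehicle, while ABCD4 did not pass the test. The ABCG genes summed to 28.4 ± 3.71 TPM in TSA and 17.4 ± 1.69 TPM in vehicle and the plasma membrane ABCB genes to 0.872 ± 0.132 TPM in TSA and 0.0216 ± 0.0188 TPM in vehicle, also without overlap. Most of the ABCG sum was ABCG1, and most of the plasma membrane ABCB sum in TSA was ABCB1. The 4 organelle ABCB genes described summed to 80.7 ± 8.26 TPM in TSA and 78.1 ± 7.76 TPM in vehicle, with overlap. The ABCA genes summed to 90.4 ± 20.2 TPM in TSA and 99.1 ± 14.7 TPM in vehicle and the ABCC genes to 75.8 ± 27.6 TPM in TSA and 81.7 ± 17.0 TPM in vehicle, both with overlap. These sums are given as a description, without a test.

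**Figure D4:**
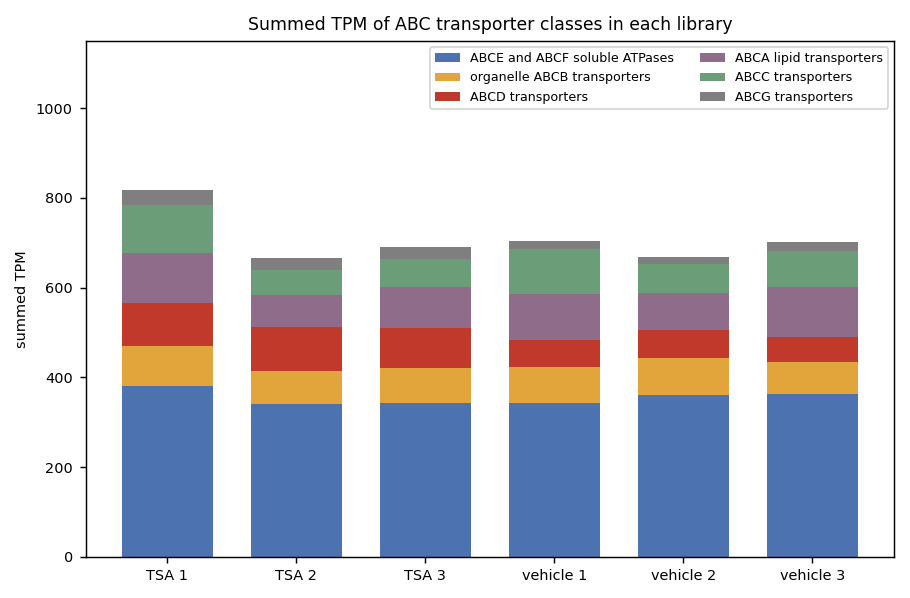
Summed TPM of the 37 ABC genes described in each library, stacked by class, with the 3 TSA libraries left of the 3 vehicle libraries; the plasma membrane ABCB genes and ABCC13 are left out, at most 1.01 and 0.0128 TPM. The ABCD and ABCG layers, mostly ABCD3 and ABCG1, are thicker in TSA, while the total is 667 to 818 TPM in TSA and 668 to 703 TPM in vehicle.

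By protein form, 5 of 7 tested genes of dimeric transporters (organelle ABCB, ABCD and ABCG) were higher and 1 lower, and of 9 tested genes of single-chain transporters (ABCA and ABCC) 1 was higher and 1 lower, beside 28.0% and 34.2% of all tested genes. The difference between the forms was not tested. The longest annotated transcript had a median of 3857 nt in the dimeric genes and 6594 nt in the single-chain genes, against 2969 nt over all tested genes. The median standard error of the log2 fold change was 0.14 in the dimeric genes and 0.24 in the single-chain genes. In 7 of the 9 ABC genes that did not pass, replicate 1 was the highest library of both groups. The same held for 10 of the 20 tested ABC genes and for 29.3% of all tested genes. Genes that did not pass are chosen for a difference that is small beside their spread, and their share over all genes was not taken. The part of replicate 1 in the missed calls was therefore not tested. With length and GC trends removed 5 dimeric genes were higher and 1 lower, and 3 single-chain genes were higher and 1 lower. Without both replicate 1 libraries 5 dimeric genes were higher and 2 lower, and 2 single-chain genes were higher and 2 lower.

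In the authors' deposited table, whose positive fold changes mean higher in TSA, 10 of the 11 called ABC genes had the same sign and an FDR under 0.05, and ABCF2 was the exception (FDR 0.47). Over all tested genes 98.0% had the sign of the TPM difference there, and the share with an FDR under 0.05 was not taken. That comparison rests on the same libraries and is no independent check. The authors' deposited table also holds ABCC10 as higher (log2 fold change 0.81, FDR 0.0021). For ABCB1 the authors' deposited table gives a log2 fold change of 7.99 and for ABCG2 of 5.57, values that depend on how 0 is handled and are no bound of the change.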

How the data were processed

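RNA of 6 libraries, 3 of TSA-treated and 3 of vehicle-treated H69 cells, was prepared with a stranded messenger RNA kit, per the labels' protocols. The submitters' processing notes list, without roles or order, FastQC 0.11.2, Picard 1.127, STAR 2.5.3a, edgeR, featureCounts and hg19. GENCODE 19 is the annotation named in the deposited table's title.

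The authors deposited TPM for 31814 genes. A second deposited table, of the authors' own comparison, holds log2 fold changes, a likelihood ratio score, p-values and FDR, per the file headers. A positive sign there means higher in TSA, as read from the TPM.

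Genes that reached 1 TPM in 3 or more libraries (17596) entered limma 3.58.1 in R 4.3.3 (trend) as log2(TPM + 1). Tests were two-sided, with Benjamini-Hochberg adjustment over these genes and a threshold of 0.05. Fold changes on this scale understate changes of low genes. Whole reads were recovered from TPM ratios between libraries for 100% of 27644 genes within a relative tolerance of 1e-09, and are the smallest possible. No pair of libraries of a group agreed within sampling noise (chi-square per degree of freedom 7.97 to 105). Length, GC content, overlaps and pseudogenes came from GENCODE 29, on another build than hg19. Promoters came from RefSeq (GRCh38.p14). Figures used matplotlib 3.10.9.

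The ABC genes, the gene lists and the classes were chosen with earlier results of these data known. Of the 39 genes, 37 are named; 2 others and some marker and partner genes are not reported here and enter no count, sum or median of the named genes. Of each partner list up to 4 genes with the greatest change past the test are named, besides those said to be named after their values were seen. ABCA6, ABCA8, ABCA9, ABCB11, ABCC9, ABCG5, ABCG8, NR1I2 and PECAM1 were not analysed here. Alternatives covered the pseudocount, filter, scaling, variance, replicate block, left-out libraries, mitochondrial genes, length and GC trends, and recovered reads with limma's voom.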

Additional observations from a re-analysis of the deposited data

How the results depend on the processing

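Of the 11 called ABC genes, 10 kept direction and call in all 20 alternatives, and ABCF2 lost its call in 12 of 20. The count of higher ABC genes ranged from 7 to 11 and of lower ones from 3 to 6 over all alternatives, with 11 and 6 when no filter was used. Leaving out single libraries gave 7 to 8 higher and 3 to 5 lower ABC genes. Over all genes it gave 3264 to 4640 higher and 4578 to 6544 lower, against 4929 and 6013; the smallest count of higher genes, 3264, came without TSA replicate 3.

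Directions turned only in genes that did not pass. ABCC5 turned to 0.0038 with a median-of-ratios scaling, 0.068 with a quantile scaling, 0.14 with length and GC trends removed, with or without the block, 0.016 on recovered reads, and ranged from −0.47 to 0.15 without single libraries. ABCF1 turned to 0.014, 0.020 and 0.028 under median-of-ratios scaling, quantile scaling and recovered reads. ABCC4 turned to 0.12 with length and GC trends removed, with or without the block. Without single libraries ABCA2 ranged from −0.12 to 0.45 and ABCC8 from −0.32 to 0.15. The cause was not tested.

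The replicate number as a block gave 8 higher and 5 lower ABC genes, with ABCC10 (adjusted p 0.0096) and ABCD4 (log2 fold change −0.47, adjusted p 0.023) added. Calls over all tested genes also rose in both directions under the block, the lower ones to 6848, against 6013 without it. Same-numbered libraries deviated together for numbers 1 and 2 (r = 0.63 and 0.59 across genes) but not for number 3 (r = −0.073). Libraries of different numbers ran from −0.64 (TSA 1 with vehicle 2) to 0.38 (TSA 3 with vehicle 2). Deviations from a mean of 3 libraries are tied to each other, so these values do not settle whether the numbers pair the libraries. The block is therefore given as an alternative only. The block with length and GC trends removed, chosen after the data were seen, gave 9 and 5. Over all genes it gave 6377 higher, against 5630 with these trends removed and no block, and the lower ones rose too. The 34 named partner and marker genes followed over the alternatives kept direction in all 659 of their values, of which 19 lost and 2 gained a call. Genes under 1 TPM rest on few reads, and a value of 0 does not show absence.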
